A study of Mus musculus with 8 samples.

Results

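Genes whose proteins end signalling by G-protein-coupled receptors were followed in mouse dorsal root ganglia (DRG) during inflammation of the hind paw. They were the arrestins Arrb1 and Arrb2, the receptor kinases Grk5 and Grk6, and the regulators of G protein signalling Rgs3, Rgs4, Rgs7, Rgs10 and Rgs17. The members were the 9 genes of that list among the 24421 genes of the deposited count table, and all 9 passed the filter on low counts that left 17328 genes tested. The list was chosen by name with the CPM and fold changes of this time course already known. The members' own values, with their intervals and threshold results, are therefore a description and no independent test.

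The study injected 20 µL of 1% carrageenan, an irritant polysaccharide, under the skin of the left hind paw of male C57BL/6J mice, labelled WT in all groups, and sequenced RNA of the L3 to L5 ganglia. The labels give the age as 8 weeks, and the study's methods give a range that starts there. Naive untreated mice formed the 0d group, and injected mice were taken after 1, 3 or 30 days (groups 1d, 3d and 30d), with 2 libraries in each group. Each library was pooled from 2 to 3 mice, and no group analysed here received vehicle, so the effects of carrageenan and of the injection cannot be told apart. The labels call the material DRG neurons. The RNA came from whole dissected ganglia, in which the markers of satellite glia, Schwann cells, fibroblasts and blood cells were also detected. In such bulk RNA, fewer cells of a type and less RNA per cell cannot be told apart.

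A ligand-bound receptor activates a G protein by making its alpha subunit exchange GDP for GTP. Receptor kinases of the GRK family phosphorylate the active receptor, and beta-arrestins bind the phosphorylated tail, which stops coupling to the G protein and links the receptor to clathrin-coated pits. RGS proteins act one step further on, as they speed up the hydrolysis of GTP by the alpha subunit. In sensory neurons these steps set how long opioid, prostaglandin, bradykinin and chemokine receptors signal, and loss of Arrb2 in mice has been tied to prolonged opioid analgesia.

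The members have close relatives, so the counts were first checked for reads that could belong to another gene. The deposited table places Arrb1 (ENSMUSG00000018909) at chr7:99535486-99606771 on the plus strand of mm10, with 16 merged exons and 7112 exon bases. Arrb2 lies at chr11:70432580-70440828, Grk5 at chr19:60889749-61092555, Grk6 at chr13:55445072-55460927 and Rgs3 at chr4:62559847-62703019, all on the plus strand. Rgs4 at chr1:169741477-169747642, Rgs7 at chr1:175059076-175492545, Rgs10 at chr7:128373625-128418172 and Rgs17 at chr10:5825664-5922400 lie on the minus strand. None of the 9 genes shared an exon base with another gene of the deposited annotation. The stretches below are the places where the pairs are most alike in their coding sequence (GENCODE annotation, GRCm38/mm10), 5′ to 3′ on the coding strand, with the longest run of identical bases in capitals and up to 30 bases on either side.
Arrb1: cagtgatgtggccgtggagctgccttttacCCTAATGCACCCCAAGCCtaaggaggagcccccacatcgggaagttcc
Arrb2: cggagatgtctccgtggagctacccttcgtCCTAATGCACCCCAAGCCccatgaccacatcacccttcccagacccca
Grk5: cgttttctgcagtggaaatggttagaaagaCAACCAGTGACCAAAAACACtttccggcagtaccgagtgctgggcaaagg
Grk6: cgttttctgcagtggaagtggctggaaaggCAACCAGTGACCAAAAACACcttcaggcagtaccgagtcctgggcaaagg
Rgs3: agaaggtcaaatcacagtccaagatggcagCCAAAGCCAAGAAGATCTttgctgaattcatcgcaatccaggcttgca
Rgs4: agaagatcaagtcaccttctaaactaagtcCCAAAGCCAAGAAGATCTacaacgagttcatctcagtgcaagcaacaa

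The Arrb1 stretch lies in exons 14 to 15, between chr7:99598488-99599804, and that of Arrb2 in exons 12 to 13, between chr11:70439553-70439736. Their coding sequences were identical at 70.6% of 1230 aligned bases, yet the longest run they share was 18 bases. Grk5 and Grk6 were identical at 68.5% of 1763 aligned bases, and their longest run was 20 bases, in exons 6 to 7 of each gene (chr19:61069368-61072484 and chr13:55451393-55451570). Among the RGS members the longest run was the 18 bases shared by Rgs3 (chr4:62701118-62701195) and Rgs4 (chr1:169744356-169744433, minus strand). Words of 50 bases were taken from the GENCODE transcript with the longest coding sequence of each member, so they do not match all exon bases counted. No such word of Arrb1, Arrb2, Grk6, Rgs4, Rgs7 or Rgs10 occurred in the transcripts of another gene. Rgs3 had 3791 words beside 7302 counted exon bases, and 32.6% of the words also occurred in Gm5763. That processed pseudogene lies at chrX:142631483-142634015 and is not in the count table. Read pairs that fit both places were not counted, so the level of Rgs3 is uncertain and may be too low. The corresponding share was 2.01% for Grk5, with the processed pseudogene Gm16284, and 0.0737% for Rgs17.

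On the log2 scale, Arrb1 was the member that differed most at 1d and 3d against 0d and from 3d to 30d. At 30d against 0d it was Grk5 (0.16), and from 1d to 3d Rgs10 (-0.11). Levels are given as CPM, counts scaled to a common library size after TMM, a normalisation that corrects for differences in library composition. Arrb1, which encodes beta-arrestin 1, stood at 387 and 398 CPM in the naive libraries, 440 and 432 CPM on the first day, 464 and 463 CPM at 3d, and 401 and 377 CPM by 30d. Both libraries at 1d lay above both at 0d, both at 3d lay above both at 1d, and the libraries at 30d overlapped those at 0d. The group means were 393 ± 8.03 CPM in naive ganglia, then 436 ± 5.83, 464 ± 0.453 and 389 ± 17.2 CPM (SD, n = 2).

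In the edgeR fit across all genes, the level of Arrb1 at 3d differed from 0d by 0.24 on the log2 scale (SE 0.04, 95% interval 0.15 to 0.33), which is 18.1% with an interval from 11.2% to 25.4%. The difference from 3d to 30d was -0.25 (SE 0.04, interval -0.34 to -0.17), or -16.1%. Both passed the threshold of an adjusted p of 0.05 over all genes tested. Since Arrb1 was chosen with these values known, that is a description and no independent test. The difference was 0.15 (SE 0.04) at 1d and -0.01 (SE 0.04) at 30d against 0d, and 0.09 (SE 0.04) from 1d to 3d, none of which passed. Both differences that passed rest on the same 2 libraries at 3d, which lay within 0.138% of each other, closer than the 6.44% between the libraries at 30d. Counting error alone was 0.575% and 0.543% for Arrb1 in the libraries at 3d, above the gap between them. With replicate 1 or 2 at 3d left out, the difference of Arrb1 against 0d was 0.24 in each case, but the call was lost. It was also lost without replicate 1 at 0d, where the difference was 0.22. With all libraries but without robust estimation, the edgeR adjusted p was 0.0680. From 3d to 30d the call was lost without replicate 1 or 2 at 3d, and without replicate 2 at 30d, where the difference was -0.21.

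**Figure D1:**
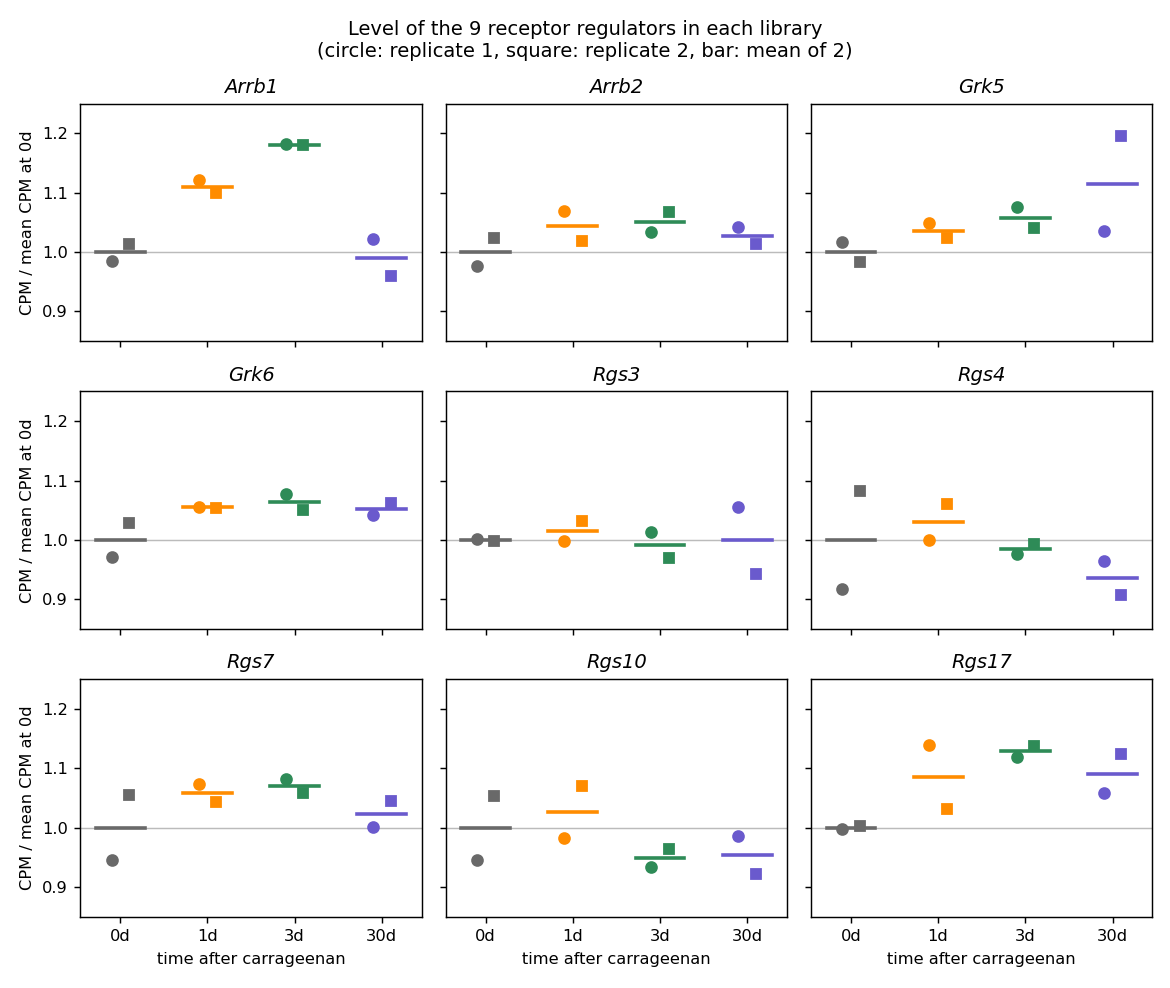
Level of each of the 9 regulators in the 8 libraries, as CPM divided by the gene's mean CPM at 0d (vertical axis, the same range in each panel), by time point (horizontal axis). Circles are replicate 1, squares replicate 2 and bars the mean of 2. Both Arrb1 libraries at 3d lie above all libraries at the other times, while the replicates of Rgs4 at 0d lie farther apart than any of its group means.

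Arrb2 encodes beta-arrestin 2, the other arrestin found outside the retina. It was at 42.8 and 44.8 CPM in the naive libraries, 46.8 and 44.6 CPM on the first day, 45.3 and 46.7 CPM at 3d, and 45.6 and 44.4 CPM by 30d. The libraries at 3d lay above those at 0d, but the fitted difference of 0.07 (SE 0.06, interval -0.06 to 0.20) did not pass the threshold, and it was 0.04 without replicate 1 at 0d and 0.11 without replicate 2. The interval of Arrb2 at 3d overlapped that of Arrb1, and the difference between the genes was taken as a ratio within each library. Divided by exon length (RPKM, CPM per kilobase of exon), Arrb1 was at 2.53 and 2.49 times the level of Arrb2 in the naive libraries, 2.63 and 2.71 times on the first day, 2.86 and 2.77 times at 3d, and 2.46 and 2.37 times by 30d. The ratios of the 4 groups did not overlap. Arrb1 made up 71.5% of the summed arrestin RPKM at 0d and 73.8% at 3d, with 70.4% to 74.1% over the 8 libraries. Since Arrb1 was chosen with these values known, the ratio is a description.

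**Figure D2:**
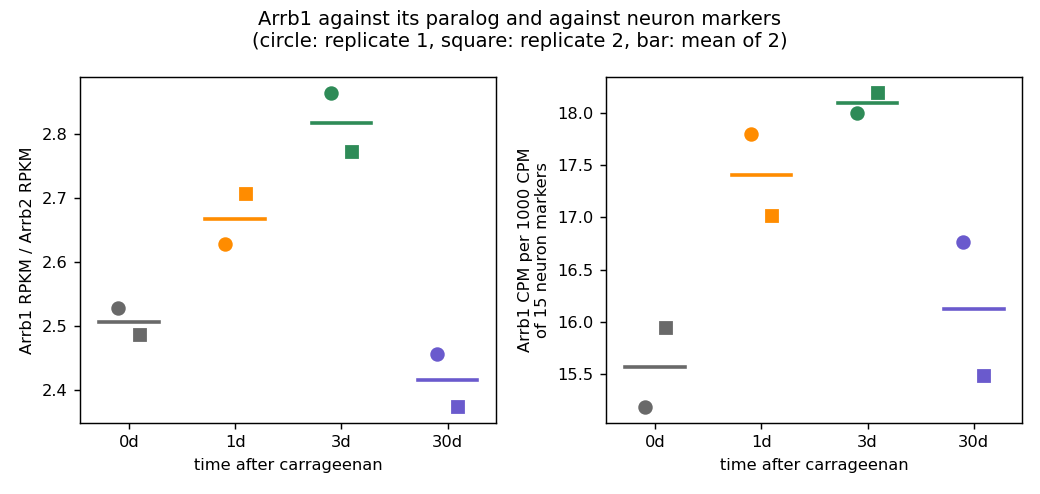
Arrb1 RPKM divided by Arrb2 RPKM (left) and Arrb1 CPM per 1000 CPM summed over 15 sensory neuron markers (right), in each library of the 4 time points. Circles are replicate 1, squares replicate 2 and bars the mean of 2, and neither vertical axis starts at 0. The libraries at 3d are the highest in both panels, at 2.86 and 2.77 on the left and 18.0 and 18.2 on the right.

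Part of the neuron markers moved with Arrb1. The summed level of the 15 markers was 24987 to 25488 CPM in naive ganglia, 24728 to 25374 CPM on the first day, 25471 to 25774 CPM at 3d and 23933 to 24344 CPM by 30d, and none of the markers was at 0. Per 1000 CPM of that sum, Arrb1 was at 15.2 and 15.9 CPM in the naive libraries, 17.8 and 17.0 CPM on the first day, 18.0 and 18.2 CPM at 3d, and 16.8 and 15.5 CPM by 30d. The libraries at 3d were again the highest, while those at 0d and 30d overlapped. The sum is carried by neurofilaments and hides differences between kinds of sensory neuron. In the edgeR test the nociceptor genes Calca, the precursor of the neuropeptide CGRP, and Scn10a, the sodium channel Nav1.8, rose at 3d by 0.32 and 0.22 on the log2 scale. Pvalb, a marker of proprioceptors, fell by 0.33 at the same time. Calca and the substance P precursor Tac1 fell from 3d to 30d by 0.43 and 0.28. Of the 15 markers, 10 had a fitted value above 0 at 3d against 0d and 2 from 3d to 30d. The nociceptor channel Trpv1 had a value of 0.15 at 3d, which did not pass. The size for Scn10a was close to that for Arrb1, and the part of these markers in the Arrb1 difference was not tested.

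Grk5 and Grk6 encode kinases of the same subfamily, which phosphorylate receptors without needing free beta-gamma subunits. Grk6 was at 69.6 and 73.7 CPM in the naive libraries, 75.6 and 75.5 CPM on the first day, 77.2 and 75.3 CPM at 3d, and 74.6 and 76.1 CPM by 30d. All 6 libraries after the injection lay above the libraries at 0d, by 0.08, 0.09 and 0.07 on the log2 scale at 1d, 3d and 30d, and the interval at 3d ran from -0.02 to 0.20. Without replicate 1 at 0d these values were 0.04, 0.05 and 0.03, and without replicate 2 they were 0.12, 0.13 and 0.11. Grk5 was at 16.5 and 15.9 CPM in the naive libraries, 17.0 and 16.6 CPM on the first day, 17.4 and 16.9 CPM at 3d, and 16.8 and 19.4 CPM by 30d. Here too the later libraries lay above both at 0d, but the 15.5% between the replicates at 30d exceeded the fitted 11.6% from 0d to 30d (log2 0.16, interval -0.05 to 0.37). That value was 0.26 without replicate 1 at 30d and 0.05 without replicate 2. Grk5 was the scarcest member, with 727 to 1356 counts a library, for which counting error alone is up to 3.71%. No difference of either kinase passed the threshold.

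Rgs4, a member of the R4 subfamily that acts on Gi and Gq proteins, was at 920 and 1084 CPM in the naive libraries, 1002 and 1062 CPM on the first day, 978 and 995 CPM at 3d, and 966 and 908 CPM by 30d. Its replicates at 0d lay 17.9% apart, the widest gap of any member, and the libraries of each later group overlapped those at 0d. The interval of the difference from 0d ran from -0.18 to 0.14 at 3d and from -0.25 to 0.06 at 30d. Without replicate 1 or 2 at 0d the difference itself was -0.14 or 0.10 at 3d and -0.21 or 0.03 at 30d. Rgs3, of the same subfamily, was at 98.2 and 97.9 CPM in the naive libraries, 97.8 and 101 CPM on the first day, 99.3 and 95.0 CPM at 3d, and 104 and 92.4 CPM by 30d. Its group means lay between 97.1 ± 3.04 and 99.5 ± 2.41 CPM (SD, n = 2), and the interval at 3d against 0d ran from -0.13 to 0.11.

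Rgs7 belongs to the R7 subfamily, whose members are stabilised by the beta subunit Gnb5 and act on Gi and Go. It was at 60.0 and 67.0 CPM in the naive libraries, 68.2 and 66.3 CPM on the first day, 68.8 and 67.2 CPM at 3d, and 63.6 and 66.3 CPM by 30d. Both libraries at 3d lay above both at 0d, with a fitted difference of 0.10 (SE 0.06, interval -0.03 to 0.23), while the replicates at 0d lay 11.6% apart. Rgs10, a small protein of the R12 subfamily that is also made by macrophages and microglia, was at 120 and 133 CPM in the naive libraries, 124 and 136 CPM on the first day, 118 and 122 CPM at 3d, and 125 and 117 CPM by 30d. It was the member with the lowest fitted value at 3d against 0d, -0.08 (interval -0.20 to 0.05), and its libraries overlapped those at 0d in all 3 later groups. The value rests on single naive libraries, as it was -0.15 without replicate 1 at 0d and 0.00464 without replicate 2, where Rgs3 was lowest at -0.01. For Rgs7 at 3d the values without these libraries were 0.02 and 0.18. The 7 macrophage markers summed to 66.2 to 80.0 CPM at 0d and to 70.9 CPM in both libraries at 3d, and one of them, the fractalkine receptor Cx3cr1, fell by 1.02 on the log2 scale. The part of these markers in the values of Rgs10 was not tested.

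Rgs17, of the RZ subfamily that acts on Gz and Gi and has been tied to opioid receptors, was at 57.9 and 58.2 CPM in the naive libraries, 66.2 and 60.0 CPM on the first day, 65.0 and 66.1 CPM at 3d, and 61.5 and 65.3 CPM by 30d. All 6 later libraries lay above the naive ones. The fitted difference was 0.12 at 1d, 0.17 at 3d (SE 0.06, interval 0.04 to 0.30, or 12.8%) and 0.13 at 30d, next after Arrb1 in size at 1d and 3d. The value at 1d was 0.05 without replicate 1 of that group and 0.19 without replicate 2. None passed the threshold over all genes.

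**Figure D3:**
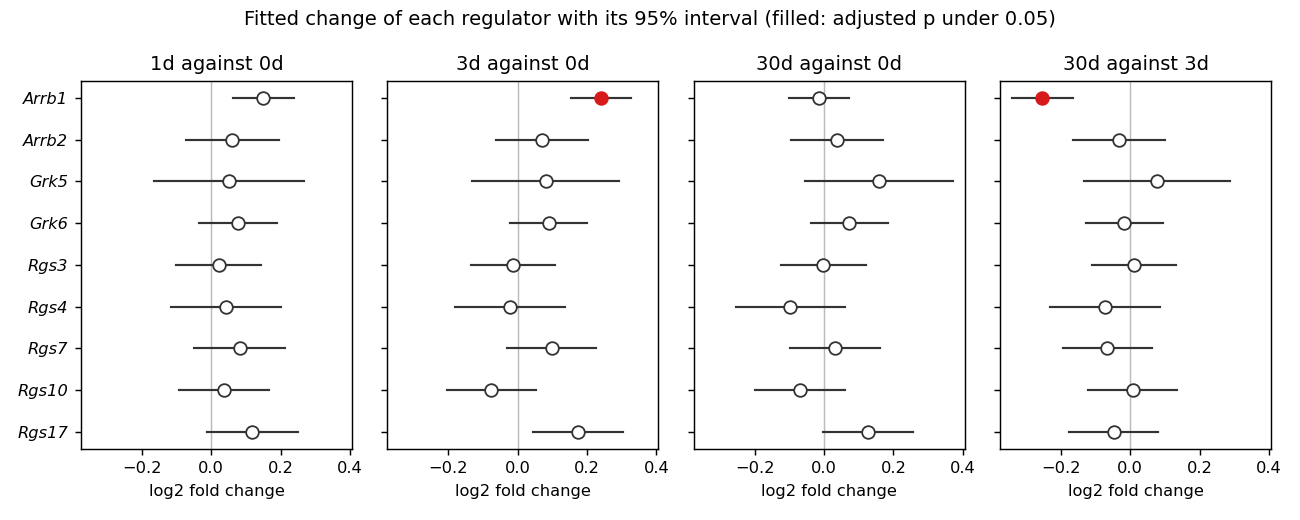
Fitted log2 fold change of each regulator (circles) with its 95% interval (lines) at 1d, 3d and 30d against 0d and at 30d against 3d, from edgeR over all genes tested. Filled circles passed an adjusted p of 0.05: Arrb1 at 3d against 0d (0.24) and at 30d against 3d (-0.25). The other intervals include 0 except Arrb1 at 1d and Rgs17 at 3d.

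Over the 9 members, edgeR's quasi-likelihood test called 0 at 1d against 0d, 1 at 3d, 0 at 30d, 0 from 1d to 3d and 1 from 3d to 30d, Arrb1 both times. Among all genes tested the shares called were 0.346%, 0.219%, 0.0231%, 0.289% and 0.935%, and with 9 members chosen with these results known nothing is read from the counts. At an unadjusted p under 0.05 the members counted 1, 2, 0, 1 and 1 in the same order, beside 4.467%, 5.944%, 12.26%, 4.236% and 13.01% of all genes. DESeq2 called 0, 1, 0, 0 and 1 members, beside 0.674%, 0.654%, 1.10%, 0.660% and 2.52% of the genes it gave an adjusted p. At 3d, 6 members had both libraries above both at 0d, against 19.9% of all genes higher without overlap, and at 1d and 30d the members were 4 and 3, against 15.5% and 19.4%. From 1d to 3d, 1 member lay higher without overlap (20.0% of all genes) and 2 lower (17.6%), and from 3d to 30d 0 lay higher (22.9%) and 3 lower (23.5%). No member lay below 0d without overlap at any time, where 16.4%, 19.6% and 20.2% of all genes did so at 1d, 3d and 30d. The comparisons with 0d share its 2 libraries, and 2 against 2 libraries cannot reach an exact permutation p below 0.333.

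The fitted differences were small. The median of the members was 0.06 at 1d, 0.08 at 3d and 0.03 at 30d on the log2 scale, where the median of all genes was within 0.01 of 0. The median size, regardless of sign, was 0.0612 at 1d, 0.0815 at 3d and 0.0689 at 30d, beside 0.0761, 0.0815 and 0.109 over all genes. Without Arrb1, the members ranged from -0.08 to 0.17 at 3d.

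The members spanned a wide range of levels. Per exon length, Rgs4 was the highest at 336 ± 20.9 RPKM (SD over 8 libraries), 106th of the 17328 genes tested, and 62.5 times the level of Grk5. Rgs10 followed at 142 ± 7.85 RPKM and Arrb1 at 59.1 ± 4.79. Rgs7 was at 26.5 ± 1.15, Arrb2 at 22.7 ± 0.661, Grk6 at 21.6 ± 0.668, Rgs3 at 13.4 ± 0.473, Rgs17 at 7.63 ± 0.430 and Grk5 at 5.38 ± 0.326 RPKM. Each member's libraries lay clear of its neighbour's in this order except for Arrb2 and Grk6, whose ranges of 21.5 to 23.5 and 20.1 to 22.3 RPKM overlapped.

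Within their families the members were not always the main genes. Of the 6 receptor kinases, Adrbk1, the older symbol of Grk2, held 74.0% of the summed RPKM at 89.4 RPKM, while Grk6 held 17.9% and Grk5 4.46%. Adrbk2 (Grk3) was at 3.64 RPKM, below Grk5. Of the 21 RGS genes, Rgs4 held 54.5% and Rgs10 23.0% of the summed RPKM. Rgs5, which is known from pericytes, came next at 35.9 RPKM, above Rgs7 with 4.30% of the sum. Rgs3 held 2.18% and Rgs17 1.24%, near Rgs11, Rgs8 and Rgs6 at 12.3, 10.9 and 10.5 RPKM.

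**Figure D4:**
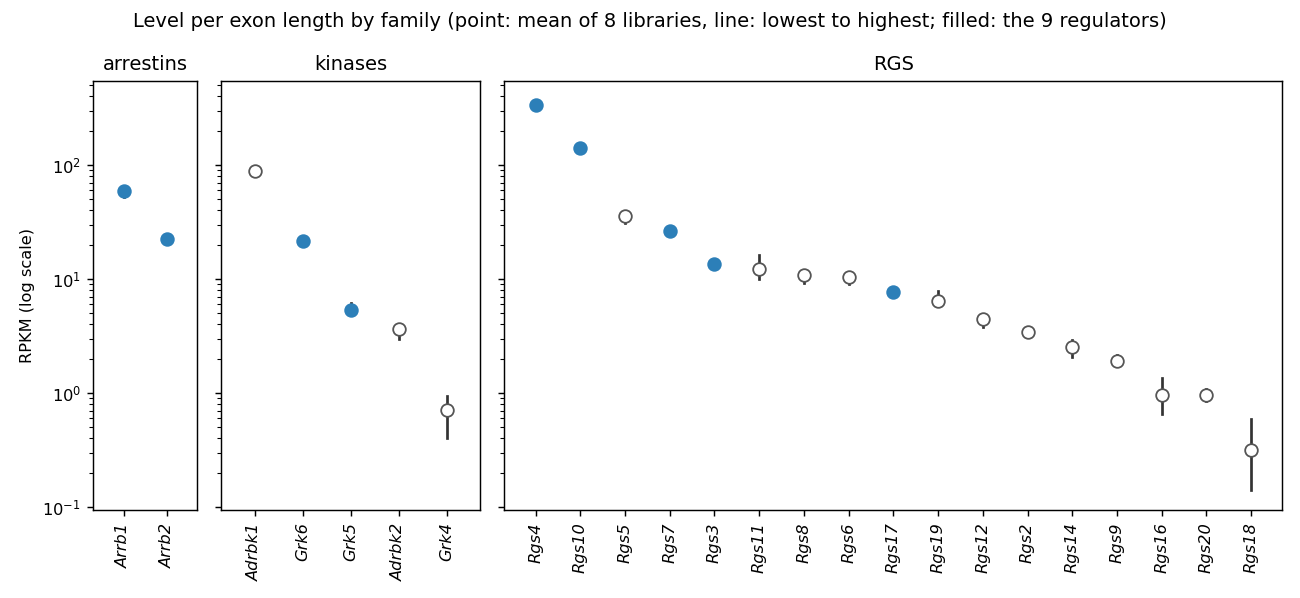
Level of the arrestins, receptor kinases and RGS genes as RPKM on a log axis, as the mean of 8 libraries (points) with the lowest and highest library (lines). Filled points are the 9 regulators, and 5 genes near 0 are not drawn. Rgs4 and Rgs10 stand above the other RGS genes, and Adrbk1 above Grk6 and Grk5.

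The other genes of receptor shut-off and G protein signalling were taken as 7 lists of 79 genes, of which 74 were tested. They held the visual and alpha-arrestins, the other receptor kinases, the other RGS genes with their partners, the alpha, beta and gamma subunits, further modulators of alpha subunits, and the clathrin, AP2, dynamin and ubiquitin genes through which arrestins drive receptor uptake. In the edgeR test 0 of the 74 were called at 1d, 3d or 30d against 0d or from 1d to 3d, and 1 was called from 3d to 30d. The shares called among all genes were 0.346%, 0.219%, 0.0231%, 0.289% and 0.935% in that order. At an unadjusted p under 0.05 the counts were 4, 4, 13, 2 and 15 of 74, with 1d, 3d and 30d against 0d first, where the shares of all genes were 4.467%, 5.944%, 12.26%, 4.236% and 13.01%. DESeq2 called 0, 0, 2, 0 and 2, beside 0.674%, 0.654%, 1.10%, 0.660% and 2.52% of the genes it gave an adjusted p. The median fitted value over the 74 genes lay between -0.02 and 0.01 in the 5 comparisons. At 3d against 0d, none of the 15 uptake genes passed, and they ranged from -0.09 (Usp20) to 0.11 (Dnm2). The 13 alpha subunits ranged from -0.08 (Gna14) to 0.28 (Gna15), and none passed. Gna15 was scarce, at 0.435 to 0.755 CPM over the libraries, and the SE of its value was 0.51.

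The gene called was Rgs11, which like Rgs7 belongs to the R7 subfamily. It was at 24.6 and 21.0 CPM in the naive libraries, 23.8 and 20.0 CPM on the first day, 21.6 and 22.5 CPM at 3d, and 31.1 and 32.3 CPM by 30d. Both libraries at 30d lay above all 6 earlier ones, and the rise from 3d to 30d was 0.52 on the log2 scale (SE 0.10, edgeR adjusted p = 0.0234). Against 0d it was 0.48, with an edgeR adjusted p of 0.0812. This comparison passed without the filter on low counts (edgeR adjusted p = 0.00638), with DESeq2 (0.00734), with a replicate block (0.0475) and without replicate 1 at 0d (0.0396). It did not pass in the other 10 alternatives, where the adjusted p ran from 0.0613 to 0.407 and the difference was 0.36 without replicate 2 at 0d. The call from 3d to 30d was lost without replicate 1 or 2 at 3d (edgeR adjusted p = 0.420 and 0.245), without replicate 2 at 30d (0.0662) and without robust estimation (0.0503). The other genes of the subfamily and their partners had values of -0.07 (Rgs7), 0.29 (Rgs6), 0.12 (Rgs9), -0.13 (Gnb5), 0.13 (Rgs7bp, a membrane anchor of the subfamily) and 0.38 (Rgs9bp, the anchor of Rgs9, SE 0.48) in the same comparison, and none passed in edgeR, while DESeq2 called Rgs6 beside Rgs11.

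**Figure D5:**
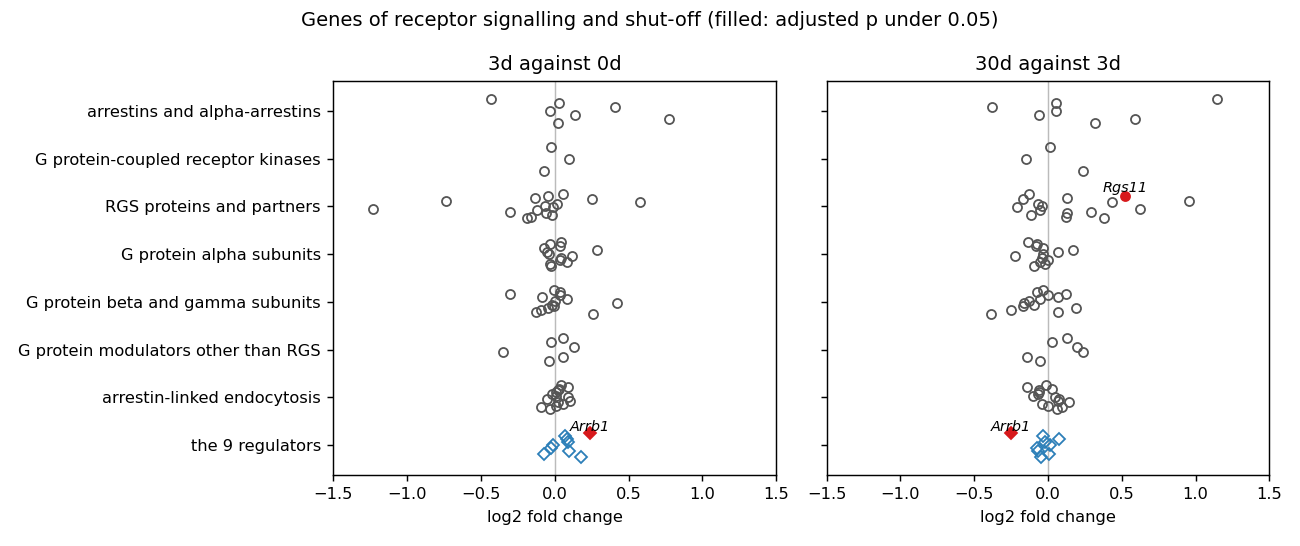
Log2 fold change of each tested gene of the 7 lists (circles) and of the 9 regulators (diamonds) at 3d against 0d (left) and at 30d against 3d (right), from edgeR. Filled red symbols passed an adjusted p of 0.05 over all genes: Arrb1 in both panels (0.24 and -0.25) and Rgs11 on the right (0.52). Vertical scatter within a list only separates the points.

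The libraries held 44123208 to 73580338 counts. The 30d libraries differed most from each other (chi-square per degree of freedom 25.0, against 7.10 at 3d), and libraries of the same group stood apart in markers of other cells. Replicate 1 at 0d was high in Schwann cell markers (11247 CPM, against 8326 in replicate 2) and fibroblast markers (1615 against 1116 CPM), and replicate 1 at 30d was low in Schwann cell markers (5783 CPM, against 8088 in replicate 2) and high in red blood cell markers (515 against 276 CPM). Satellite glia markers summed to 3109 to 3136 CPM in naive ganglia, 2919 to 3017 CPM on the first day, 3053 to 3057 CPM at 3d and 2619 to 2712 CPM by 30d. Neutrophil markers summed to 35.2 to 74.8 CPM in naive ganglia, 84.7 to 87.1 CPM on the first day, 109 to 112 CPM at 3d and 77.2 to 171 CPM by 30d, where replicate 1 was the highest of all 8 libraries. Skeletal muscle markers summed to 127 and 68.1 CPM in the naive libraries, 27.1 and 58.6 CPM on the first day, 62.1 and 60.4 CPM at 3d, and 105 and 18.0 CPM by 30d. One of them, the myosin gene Myh1, fell at 3d by 1.61 on the log2 scale and rose from 3d to 30d by 1.35 in the edgeR test, opposite in sign to Arrb1 in both comparisons. The satellite glia marker Apoe fell from 3d to 30d by 0.23 in the same test, with the sign of Arrb1. Apoe was also called lower at 30d than at 0d, by 0.28, where the difference of Arrb1 was -0.01. Myh1 was also called lower at 1d than at 0d, by 1.47. None of the markers in the table was at 0 in all libraries. Their part in the members' values was not tested. Without replicate 1 at 30d, the difference of Arrb1 from 3d to 30d was -0.30.

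The genes whose levels followed that of Arrb1 most closely over the 8 libraries were Osbpl3 (Pearson r of log2 CPM 0.987), Mt2 (0.986), Ptpn9 (0.985), Nptx1 (0.984) and Tmem100 (0.982), and 85 genes had an r over 0.9. These are descriptions across 8 libraries, in which all genes share the 4 time points and each library's depth. Mt2, a metallothionein, had group means of 16.9 CPM in naive ganglia, then 31.4, 39.9 and 15.1 CPM. Nptx1, a neuronal pentraxin, was at 274, 306, 345 and 259 CPM, and Osbpl3, a lipid-binding protein, at 413, 441, 468 and 409 CPM. Among the members the r with Arrb1 was 0.68 for Arrb2, 0.62 for Rgs7, 0.53 for Grk6 and 0.52 for Rgs17, 0.38 for Rgs4, 0.14 for Rgs3, 0.05 for Rgs10 and -0.20 for Grk5.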

How the data were processed

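Ganglion RNA was sequenced from 8 libraries on an Illumina HiSeq after a TruSeq preparation. The authors used cutadapt 2.10 for trimming and STAR 2.7.5a for alignment to mm10, and counted read pairs per gene with featureCounts 2.0.1, without strand and without pairs that map to several places. The deposited values are raw counts per gene, with the summed exon length of each gene beside them. Pairs that touch overlapping genes were counted for each.

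From these counts, genes with low counts were removed (filterByExpr of edgeR 4.0.16, R 4.3.3), libraries were scaled by TMM, and edgeR's quasi-likelihood F-test with robust estimation was fitted over all 4 groups, with Benjamini-Hochberg adjustment over 17328 genes and a threshold of 0.05. Standard errors are the log2 fold change divided by the root of F. RPKM used the deposited exon lengths. The common biological coefficient of variation was 8.85%. DESeq2 1.42.0, other scaling, no filter, no robust estimation, the compared groups alone, a replicate block and leaving out each library were alternatives. Sequence matches used 50-base words of each member's GENCODE transcript with the longest coding sequence, sought in the GENCODE transcripts of other genes.

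The members and lists were chosen with earlier results of these data known. Named genes were the members, any gene of the 7 lists past the threshold, family counterparts whose levels are compared and the 5 genes most like a called member. The lowest and highest gene of a list, the partners of Rgs11 and the named marker genes were picked after their values were seen. The 2 libraries of a group are separate pools of 2 to 3 mice by the study's methods, so p-values measure the spread between pools.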

Additional observations from a re-analysis of the deposited data

Results flagged for a closer look

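Of the 9 members and the 74 tested genes of the 7 lists, 2 passed the threshold between time points after the injection. The comparison was 30d against 3d, where 162 of the 17328 genes tested (0.935%) passed. Arrb1 differed by -0.25 on the log2 scale (edgeR adjusted p = 0.00888), with both libraries at 30d below both at 3d. Since Arrb1 was chosen with these data known, this is a description of the same values. Rgs11 differed by 0.52 (edgeR adjusted p = 0.0234), with both libraries at 30d above both at 3d. Both comparisons use the same 4 libraries.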

How the results depend on the processing

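With 2 libraries a group, the counts of genes called moved with the settings. Without a filter on low counts they were 95, 89, 177, 99 and 358 for the 3 later groups against naive mice and then from 1d to 3d and from 3d to 30d, where the reported counts were 60, 38, 4, 50 and 162. With DESeq2 they were 110, 109, 184, 110 and 378 in the same order. Without robust estimation they were 20 at 3d, 0 at 30d against 0d (edgeR, 2137 at an unadjusted p under 0.05) and 92 from 3d to 30d. With the compared groups alone they were 121 at 3d, 0 at 30d (edgeR, 1366 unadjusted), 260 from 1d to 3d and 273 from 3d to 30d. Leaving out 1 library gave 26 to 111, 1 to 121, 1 to 202, 5 to 117 and 12 to 525 genes, on the assumption that a lone library varies like the others.

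Of the members, Arrb1 at 3d against 0d lay between 0.22 and 0.26 in 14 alternatives and lost the call in 4 of them, so that 0 members were called without robust estimation (edgeR adjusted p = 0.0680, range from 4.41e-05 with DESeq2 to 0.503) and 0 to 1 when a library was left out. From 3d to 30d it lay between -0.30 and -0.21, and 0 to 1 members were called when a library was left out, with 3 calls lost (adjusted p from 4.60e-06 with DESeq2 to 0.188). No member gained a call in the 602 other values, of which 570 moved by less than their standard error. The 32 that moved by more all came from leaving out 1 library, and values that were not called turned their sign in part of these. No value that was called turned its sign.

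Of the 7 lists, the genes called at 30d against 0d were 3 without the filter (Rgs11, Gng3, Dnm3), 2 with DESeq2 (Rgs11, Dnm3) and 0 to 2 when a library was left out. From 1d to 3d, 1 gene (Arrdc2) was called with the compared groups alone. From 3d to 30d they were 3 without the filter (Rgs11, Gnai3, Gng3), 2 with DESeq2 (Rgs6, Rgs11) and 0 without robust estimation. With the compared groups alone they were 2 (Rgs11, Gng3). When a library was left out, the call was Rgs11, none (without replicate 1 or 2 at 3d) or Gng8 (without replicate 2 at 30d). Over the 14 alternatives the difference of Rgs11 from 3d to 30d lay between 0.49 and 0.55, with an edgeR or DESeq2 adjusted p from 0.000555 to 0.420. The causes were not tested.

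Replicate numbers are shared by the groups, but the deviations of replicate 1 from the group means correlated by only -0.0144 to 0.0438 over the 6 pairs of groups, so the numbers were not taken to pair the samples. With a replicate block, 69 genes were called at 30d against 0d and 77 from 1d to 3d, and of the lists 1 at 30d (Rgs11) and 2 from 3d to 30d (Rgs11, Gnai3). The block changed no call of a member.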
